A study of Caenorhabditis elegans with 12 samples.

Results

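A heterogeneous set of 42 microRNA hairpins of the nematode Caenorhabditis elegans, out of the 250 hairpins of the count table, is described here. They are the hairpins named mir with a number under 1000 that lie outside the larger or better studied families of the worm. The rule goes by name, but it was set with earlier results of these data known. By number the 42 run from mir-59 to mir-800, with mir-236, mir-245, mir-243 and mir-355 among them. The reads came from whole N2 hermaphrodites, a wild-type strain, in 12 small RNA libraries made with a TruSeq kit. There were 4 groups of 3 libraries: 15 day old worms after rotenone, 15 day old worms after DMSO, 5 day old worms after rotenone and 5 day old worms after DMSO. Rotenone, an inhibitor of complex I of the mitochondrial respiratory chain, was given at 100 nM for 24 hours from the L4 larval stage, and the controls received 0.1% DMSO, the solvent. The labels do not say from which event the days are counted. They also do not say whether the libraries of a group came from separate cultures, so the p-values measure only the spread between these libraries, which may be technical.

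A microRNA is cut from a folded precursor, the hairpin, and is loaded into an Argonaute protein, where its seed, the bases near its 5′ end, guides it to messenger RNAs that are then repressed. Several of the 42 have relatives in other animals. The hairpin mir-236 is the worm member of the miR-8 and miR-200 family, mir-234 resembles vertebrate miR-137, mir-245 resembles miR-133, mir-259 shares its seed with miR-216, and mir-67 resembles Drosophila miR-307. The mature miR-67 of the worm is widely used as a non-targeting control in mammalian cells. Others are known from worm genetics: miR-243 is loaded into RDE-1, the Argonaute of the RNA interference pathway, miR-355 is reported to repress the insulin receptor gene daf-2, and mir-273 was described in the left and right asymmetry of taste neurons. Most of the others have no role that is stated here. The counts join both arms of a hairpin, so the 2 arms cannot be compared.

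Total counts were 4215830 to 5856949 reads per library in day 15 rotenone, 4727531 to 5989717 in day 15 DMSO, 8891063 to 11045174 in day 5 rotenone and 8845726 to 10481528 in day 5 DMSO. A count of 3 was worth 0.512 to 0.712 CPM, the count scaled to the library total, in day 15 rotenone and 0.501 to 0.635 CPM in day 15 DMSO, against 0.272 to 0.337 and 0.286 to 0.339 CPM in the day 5 rotenone and DMSO libraries, so low hairpins were measured less precisely at day 15. The sequencing lane, L006 or L007 in the labels, was balanced over treatment within each age but not over age, with 4 of 6 day 5 libraries and 2 of 6 day 15 libraries in lane L006. Each day 15 group thus had 1 library in lane L006 and each day 5 group 1 in lane L007, so within a lane the ageing and interaction values, and the rotenone values of day 15 in L006 and of day 5 in L007, rest on groups of 1 library. Hairpins that mark tissues of a whole worm were all present. The muscle marker mir-1 stood at 181 to 224 CPM in day 15 DMSO and 475 to 616 in day 5 DMSO, and the intestinal marker mir-60 at 1047 to 1079.7 and 2102 to 2495. The neuronal markers lsy-6 and mir-124 summed to 31.9 to 43.5 CPM in day 15 DMSO and 134 to 140.2 in day 5 DMSO. The 8 hairpins mir-35 to mir-42, which mark oocytes and embryos, summed to 155439 to 163876 CPM in day 15 DMSO and 84655 to 97988 in day 5 DMSO.

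Of the 42 hairpins, 30 passed the filter on low counts and were tested, each with a read in every library, and 21 of these had a mean of at least 10 CPM over the 12 libraries. The tested members spanned a wide range of levels, from mir-236 with a mean of 4680.4 CPM, rank 33 of the 250 hairpins, to mir-360 with 1.09 CPM. After mir-236 came mir-245 with 2561 CPM, mir-59 with 471, mir-243 with 422 and mir-355 with 377. All 42 together held 0.753 ± 0.0564% of the reads in day 15 rotenone and 0.755 ± 0.0507% in day 15 DMSO, against 1.20 ± 0.0259% and 1.20 ± 0.0751% in the day 5 rotenone and DMSO libraries (SD, n = 3 each). The treatments overlapped at each age, and all day 15 libraries lay below all day 5 libraries. Of the reads of the members, mir-236 and mir-245 carried 69.8 to 70.9% of the reads in day 15 rotenone and 68.6 to 71.3% in day 15 DMSO. In the day 5 libraries they carried 76.1 to 76.98% after rotenone and 75.4 to 76.9% after DMSO.

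**Figure D1:**
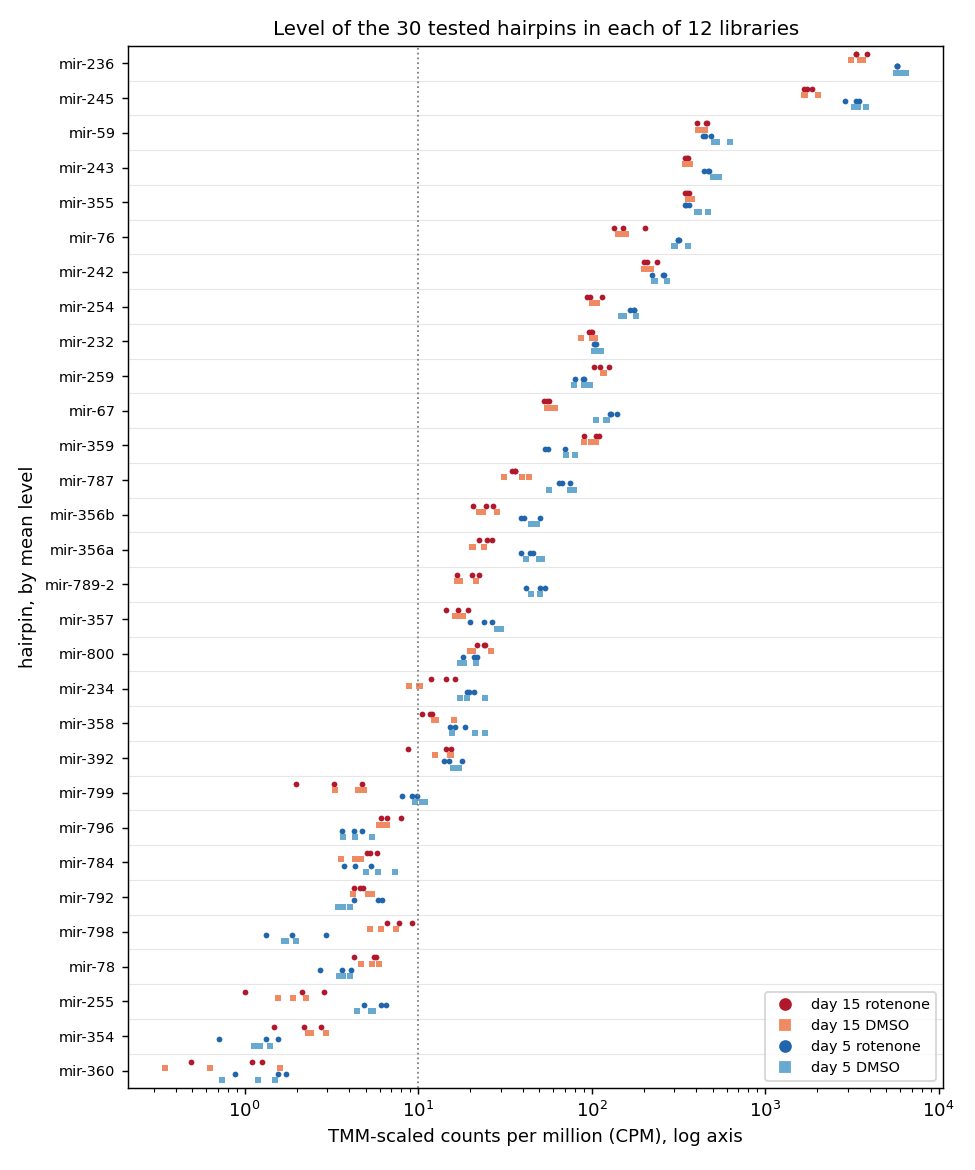
Each row is 1 of the 30 tested hairpins, ordered by mean level, and each point is 1 library placed by its TMM-scaled CPM on a log axis; red circles are day 15 rotenone, orange squares day 15 DMSO, dark blue circles day 5 rotenone and light blue squares day 5 DMSO, and the dotted line marks 10 CPM. For most of the abundant hairpins, mir-236 and mir-245 among them, the red and orange points lie left of the blue ones, while for mir-259, mir-359 and mir-798 they lie right of them.

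The 12 members that could not be tested form a block by number: mir-256, mir-261 and mir-264 to mir-273. Together they had 15 reads over all 12 libraries, and 8 of them had no read in any. Those 8 are mir-256, mir-261, mir-264, mir-265, mir-267, mir-268, mir-272 and mir-273. Among the other 4, mir-269 had 8 reads, mir-271 had 5, and mir-266 and mir-270 had 1 each. For a hairpin with no read, a count of 0 allows a level of up to 0.272 CPM in the deepest library and 0.712 CPM in the shallowest, and this limit covers counting error only. At this depth none of the 12 was detectable at a level where groups could be compared.

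Ageing was the comparison in which the members moved. After rotenone, 21 of the 30 tested members were called between day 15 and day 5, 5 higher and 16 lower at day 15, where called means a Benjamini-Hochberg adjusted p below 0.05 in edgeR's quasi-likelihood test. Over all 181 tested hairpins 75.1% were called after rotenone, 37.6% in each direction. In the DMSO controls 25 members were called, 6 higher and 19 lower at day 15, beside 80.1% of all hairpins, 38.1% higher and 42% lower. Errors of log2 fold changes are standard errors. The share called among the members, 83.3% in DMSO, was thus near the background, while 63.3% of them were lower. The median log2 fold change after rotenone was -0.43 over the 30 members and 0.01 over all tested hairpins, and in DMSO it was -0.53 and -0.02. All 21 members called after rotenone were called with the same sign in DMSO, which is 21 of 21 and 21 of 25 calls, from libraries that the 2 comparisons do not share. With 75.1% and 80.1% of all hairpins called, the same overlap over all of them was not counted. The overlap is thus not shown to be particular to the members. Along with these falls, the muscle, intestinal and neuronal markers above were lower at day 15 (4 of 4 called lower in DMSO) and the mir-35 to mir-42 markers higher (8 of 8 called higher), and their part in the result was not tested. Counts give shares of a library and no amount per worm, so fewer cells of a type and less RNA per cell cannot be told apart.

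Among the members with relatives outside worms, the 2 most abundant both fell with age. The miR-200 relative mir-236 (chrII:7030180-7030277, minus strand, outside protein-coding genes) had 3334, 3874 and 3346 CPM in the day 15 rotenone libraries and 3509, 3644 and 3130.3 in day 15 DMSO. At day 5 the values were 5727, 5775 and 5784 CPM in rotenone and 5671, 6505 and 5982 in DMSO. Its highest day 15 library lay well under its lowest day 5 library, and the treatments overlapped at each age. The level at day 15 was 1.64-fold lower after rotenone (log2 -0.71 ± 0.07, adjusted p = 1.38e-09) and 1.77-fold lower in DMSO (log2 -0.82 ± 0.07, adjusted p = 6.81e-11, edgeR quasi-likelihood test). For mir-245, the relative of miR-133 on chromosome I, the libraries gave 1874, 1674 and 1746 CPM in the day 15 rotenone libraries and 2010.3, 1682 and 1688 in day 15 DMSO. The day 5 libraries gave 3332, 3465 and 2871 CPM in rotenone and 3417, 3795 and 3251 in DMSO. Day 15 again lay below day 5 without overlap, with log2 fold changes of -0.87 ± 0.08 after rotenone and -0.96 ± 0.08 in DMSO. Within the lanes the change of mir-236 in DMSO was -0.76 in lane L006 and -0.83 in lane L007, and that of mir-245 was -0.81 in lane L006 and -0.96 in lane L007.

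A fall was also measured for mir-67. This hairpin lies in an intron of zmp-1, a matrix metalloprotease gene, on the same strand (chrIII:5931349-5931447, minus strand). It had 55.0, 56.7 and 52.8 CPM in the day 15 rotenone libraries and 55.2, 58.1 and 61.6 in day 15 DMSO. Day 5 rotenone had 127, 129 and 139.6 CPM and day 5 DMSO 106, 123 and 121. All 6 day 15 libraries lay below all 6 day 5 libraries, and the log2 fold changes were -1.26 ± 0.09 after rotenone and -1.0035 ± 0.09 in DMSO (adjusted p = 7.46e-11, edgeR quasi-likelihood test). The miR-137 relative mir-234 (chrII:14466263-14466358, minus strand) was measured at low levels, with 11.8, 14.5 and 16.3 CPM in the day 15 rotenone libraries and 10.3, 8.88 and 10.1 in day 15 DMSO. In day 5 worms it stood at 20.97, 19.7 and 19.0 CPM after rotenone and 19.0, 24.4 and 17.4 after DMSO. Day 15 DMSO was lowest in all 3 libraries, and day 15 rotenone lay between it and day 5. Its changes with age were -0.51 ± 0.16 after rotenone (adjusted p = 0.00460) and -1.06 ± 0.16 in DMSO (adjusted p = 1.55e-06, edgeR quasi-likelihood test).

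The fifth of these relatives went the other way. The hairpin mir-259 (chrV:10539025-10539125, minus strand, outside protein-coding genes) had 103, 127 and 112 CPM in the day 15 rotenone libraries and 117, 116 and 118 in day 15 DMSO. At day 5 the values were 80.3, 89.2 and 90.5 CPM in rotenone and 79.5, 97.9 and 90.3 in DMSO. Every day 15 library was above every day 5 library, by 0.39 ± 0.09 in log2 units after rotenone and by 0.39 ± 0.09 in DMSO (adjusted p = 0.000415, edgeR quasi-likelihood test). Of these 5 hairpins, listed by relatives known as background and not by sequences read here, 4 thus fell and 1 rose with age in both treatments. Over all hairpins 42% were called lower and 38.1% higher in DMSO, and 37.6% in each direction after rotenone. The median of the 5 was -0.71 after rotenone and -0.96 in DMSO, beside 0.01 and -0.02 over all hairpins. Without any 1 library, and under the other scalings, filters and tools tried, all 5 kept their calls.

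**Figure D2:**
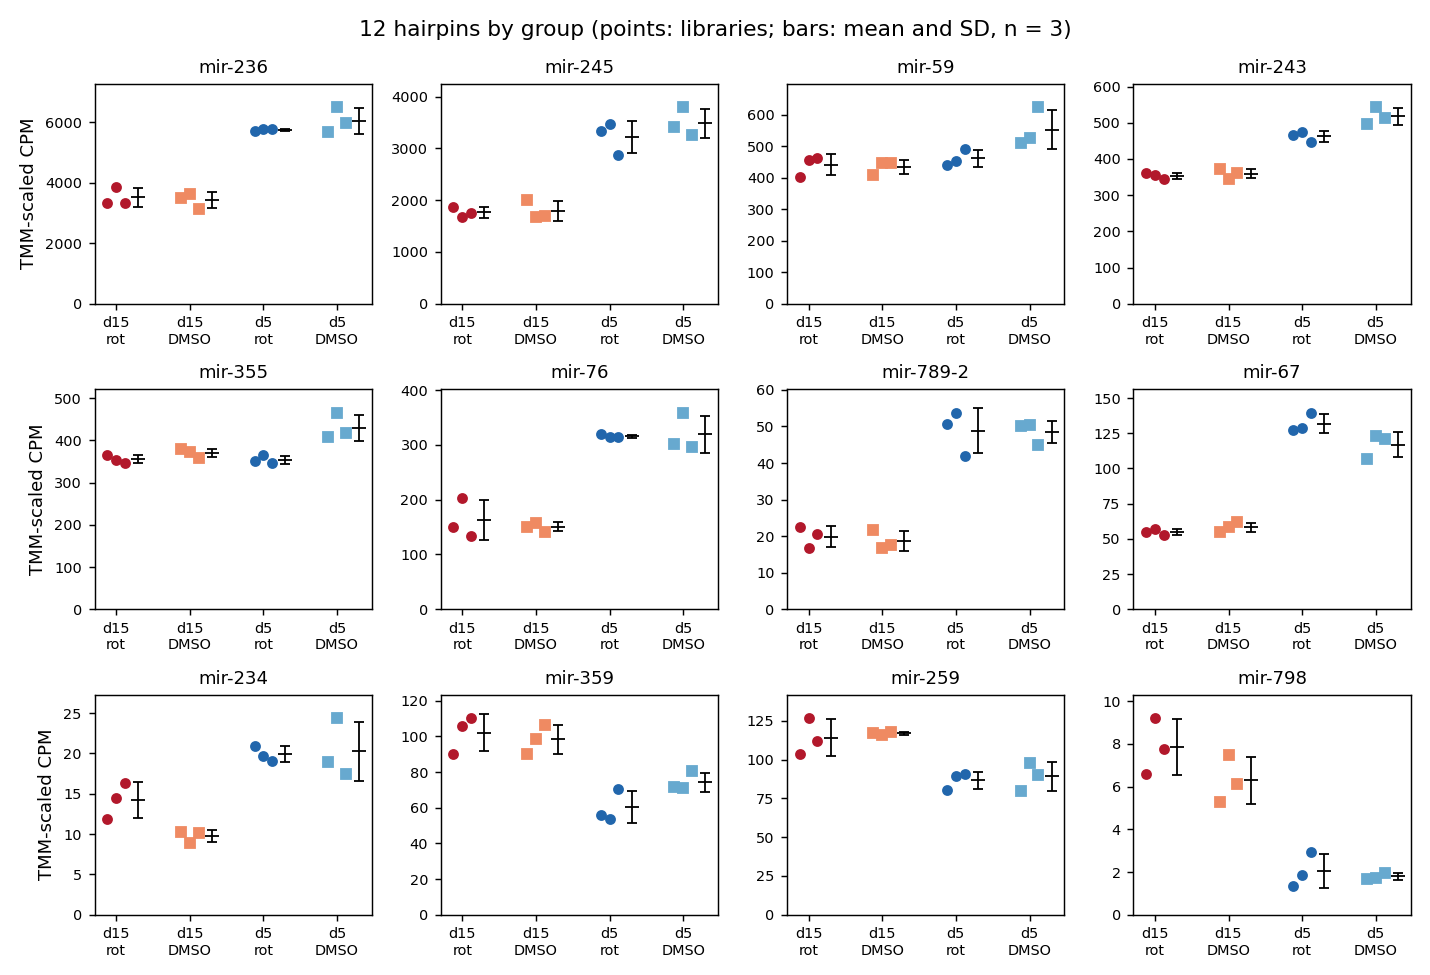
For 12 hairpins, points show the TMM-scaled CPM of each library by group, from left day 15 rotenone, day 15 DMSO, day 5 rotenone and day 5 DMSO; the bar beside each group is the mean and SD of its 3 libraries, and every vertical axis starts at 0. The day 15 points lie below the day 5 points for mir-236, mir-245, mir-243, mir-76, mir-789-2, mir-67 and mir-234 and above them for mir-359, mir-259 and mir-798, while mir-59 and mir-355 are highest in day 5 DMSO.

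In DMSO, the largest falls among members with 10 CPM or more belonged to mir-789-2, mir-356a and mir-76. For mir-789-2, in an intron of T28F3.9 on the opposite strand (chrIV:17309307-17309403, minus strand), the values were 22.4, 16.7 and 20.5 CPM in the day 15 rotenone libraries and 21.6, 16.7 and 17.5 in day 15 DMSO. The day 5 libraries gave 50.7, 53.8 and 41.9 CPM in rotenone and 50.2, 50.3 and 45.0 in DMSO. The day 15 libraries of either treatment had less than the lowest day 5 library, and the log2 fold changes were -1.29 ± 0.13 after rotenone and -1.37 ± 0.13 in DMSO (adjusted p = 3.11e-10, edgeR quasi-likelihood test). It has a second copy, mir-789-1, whose counts were lower in all 12 libraries, by a ratio of 1.01 to 2.06, and reads that fit both copies may have been split between them. Summing both copies gave -1.54 in DMSO. For mir-76 (chrIII:3142045-3142141, plus strand) the libraries held 151, 204 and 134 CPM in the day 15 rotenone libraries and 151, 158 and 142 in day 15 DMSO. Day 5 rotenone had 319, 314 and 314 CPM and day 5 DMSO 302, 359 and 297, and day 15 lay below day 5 throughout. Its log2 fold changes were -0.95 ± 0.10 after rotenone and -1.08 ± 0.10 in DMSO, and day 15 rotenone replicate 2 stood highest among the day 15 libraries.

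A pair of loci, mir-356a and mir-356b, overlap on opposite strands of chromosome III (chrIII:7860147-7860256 on the plus strand and chrIII:7860167-7860234 on the minus strand), and mir-356a also overlaps an exon of tomm-7, a subunit of the mitochondrial import complex. The tomm-7 overlap is on the same strand, so reads of mir-356a cannot be told by strand from fragments of that transcript. Whether the counting used strand is not given in the sources used here, so both hairpins are uncertain. Their counts were close: mir-356a was the higher of the pair in 5 libraries and equal in 1, with ratios of 0.723 to 1.20. For mir-356a the values were 26.5, 22.6 and 25.0 CPM in the day 15 rotenone libraries and 20.5, 24.0 and 20.7 in day 15 DMSO. In day 5 worms it stood at 45.7, 44.0 and 39.3 CPM after rotenone and 41.8, 51.4 and 49.5 after DMSO. For mir-356b they were 27.0, 24.5 and 20.8 CPM in the day 15 rotenone libraries and 28.4, 23.5 and 22.4 in day 15 DMSO. At day 5 the values were 40.9, 50.4 and 39.3 CPM in rotenone and 48.4, 45.8 and 44.7 in DMSO. Both fell with age without overlap between the ages, mir-356a with log2 fold changes of -0.79 ± 0.12 after rotenone and -1.12 ± 0.12 in DMSO, and mir-356b with -0.83 ± 0.13 after rotenone and -0.90 ± 0.13 in DMSO. In DMSO the adjusted p was 2.75e-09 for mir-356a and 3.31e-07 for mir-356b (edgeR quasi-likelihood test). As 1 summed hairpin they changed by -0.82 after rotenone and -1.02 in DMSO.

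Smaller falls were measured for mir-787, mir-254 and mir-243. The hairpin mir-787 (chrX:11294708-11294797, plus strand) had 36.2, 36.4 and 34.8 CPM in the day 15 rotenone libraries and 31.1, 39.7 and 43.5 in day 15 DMSO. The day 5 libraries gave 67.3, 64.8 and 75.1 CPM in rotenone and 56.5, 74.7 and 79.5 in DMSO, with changes of -0.95 ± 0.13 after rotenone and -0.89 ± 0.13 in DMSO. In mir-254, which lies in an intron of the guanylyl cyclase gene gcy-9 on its strand (chrX:11333531-11333630, minus strand), the values were 94.3, 97.3 and 114 CPM in the day 15 rotenone libraries and 107, 101 and 105 in day 15 DMSO. Day 5 rotenone had 166, 175 and 175 CPM and day 5 DMSO 148, 153 and 181. Its level at day 15 was 1.69-fold lower after rotenone and 1.54-fold lower in DMSO (adjusted p = 4.26e-07, edgeR quasi-likelihood test). The RDE-1 partner mir-243, in an intron of R08C7.12 on its strand (chrIV:4450779-4450876, plus strand), had 360.0, 355 and 345 CPM in the day 15 rotenone libraries and 371, 346 and 359.9 in day 15 DMSO. In day 5 worms it stood at 467, 474 and 446 CPM after rotenone and 497, 543 and 513 after DMSO. In its case the ages again did not overlap, although the change was smaller, -0.39 ± 0.07 after rotenone and -0.53 ± 0.07 in DMSO on the log2 scale.

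The neighbours mir-357 and mir-358 lie 207 bases apart on the minus strand of chromosome V (chrV:8580542-8580651 and chrV:8580858-8580967), in an intron of symk-1, a gene on the opposite strand. They fell together with age. The values of mir-357 were 16.9, 14.5 and 19.3 CPM in the day 15 rotenone libraries and 16.4, 18.1 and 17.7 in day 15 DMSO. At day 5 the values were 23.9, 26.6 and 19.9 CPM in rotenone and 28.7, 29.9 and 28.4 in DMSO. Those of mir-358 were 11.7, 12.1 and 10.5 CPM in the day 15 rotenone libraries and 16.2, 12.4 and 12.7 in day 15 DMSO. The day 5 libraries gave 18.6, 16.4 and 15.2 CPM in rotenone and 21.2, 24.3 and 15.7 in DMSO, and here 1 day 15 DMSO library exceeded the lowest day 5 DMSO library. For mir-357 the log2 fold changes were -0.48 ± 0.14 after rotenone (adjusted p = 0.00372) and -0.74 ± 0.13 in DMSO (adjusted p = 1.88e-05), and for mir-358 -0.55 ± 0.18 after rotenone (adjusted p = 0.00655, edgeR quasi-likelihood test) and -0.57 ± 0.16 in DMSO (adjusted p = 0.00257). Among members under 10 CPM, mir-255 had 30 reads over the 3 day 15 rotenone libraries and 32 in day 15 DMSO, against 177 in day 5 rotenone and 144 in day 5 DMSO (log2 -1.51 ± 0.28 after rotenone and -1.42 ± 0.28 in DMSO, scaled for depth). In the same order of groups the sums for mir-799 were 48, 70, 274 and 292 reads (log2 -1.46 ± 0.24 and -1.31 ± 0.21). Both were called lower at day 15 in both treatments.

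The rises with age were fewer. The hairpin mir-359 (chrX:3004291-3004400, plus strand) had 90.3, 106 and 110.2 CPM in the day 15 rotenone libraries and 90.3, 98.5 and 106 in day 15 DMSO. Day 5 rotenone had 56.1, 54.0 and 70.5 CPM and day 5 DMSO 71.4, 70.9 and 80.4. All day 15 libraries lay above all day 5 libraries, and the log2 fold changes were 0.76 ± 0.11 after rotenone (adjusted p = 3.91e-07) and 0.41 ± 0.10 in DMSO (adjusted p = 0.00105, edgeR quasi-likelihood test). Its neighbours on chromosome X within 10000 bases, mir-785 and mir-249, which are not among the 42, had changes after rotenone of 0.41 ± 0.07 and 0.49 ± 0.08, and in DMSO of 0.26 ± 0.07 and 0.07 ± 0.08 (adjusted p = 0.00174 and 0.401 in DMSO, edgeR quasi-likelihood test). The steepest rise in either treatment was that of mir-798, a scarce hairpin in an intron of ilcr-1 on the opposite strand (chrIV:14277312-14277387, minus strand). It had 6.58, 9.20 and 7.76 CPM in the day 15 rotenone libraries and 5.29, 7.49 and 6.12 in day 15 DMSO. In day 5 worms it stood at 1.33, 1.88 and 2.94 CPM after rotenone and 1.69, 1.73 and 1.97 after DMSO, so day 15 lay over day 5 in every library. The rise was 3.81-fold after rotenone (log2 1.93 ± 0.26) and 3.50-fold in DMSO (log2 1.81 ± 0.27, adjusted p = 1.13e-06, edgeR quasi-likelihood test), from raw counts of 33, 43 and 29 in day 15 DMSO and 18, 16 and 16 in day 5 DMSO.

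Scarcer still was mir-354, which overlaps an exon of the ribosomal protein gene rps-20 on the same strand, so that its reads cannot be told from fragments of that transcript. Raw counts were 9, 10 and 11 in day 15 rotenone and 15, 17 and 11 in day 15 DMSO. The deeper day 5 libraries had 15, 14 and 7 reads after rotenone and 12, 13 and 10 after DMSO. Its rise was called in DMSO (log2 1.03 ± 0.33, adjusted p = 0.00631, edgeR quasi-likelihood test) and not after rotenone (log2 0.78 ± 0.36, adjusted p = 0.0526). The rises of mir-78 (0.59 ± 0.23 after rotenone and 0.52 ± 0.22 in DMSO) and mir-796 (0.68 ± 0.21 after rotenone and 0.51 ± 0.21 in DMSO) had no overlap between the ages and rested on means of 4.45 and 5.47 CPM. Summed raw counts of mir-78 were 77 in day 15 rotenone, 89 in day 15 DMSO, 105 in day 5 rotenone and 104 in day 5 DMSO, and those of mir-796 in the same order 100, 105, 129 and 123. In DMSO the call of mir-78 ended without day 5 replicate 1 or 2 or day 15 replicate 1 or 3 (0.46 to 0.51, adjusted p = 0.0694 to 0.0940), and that of mir-796 without the same libraries (0.37 to 0.51, adjusted p = 0.0519 to 0.134; edgeR quasi-likelihood test). After rotenone the call of mir-78 ended without day 5 replicate 3 or day 15 replicate 1 or 2 (0.44 to 0.51, adjusted p = 0.0720 to 0.0938, edgeR quasi-likelihood test).

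At the weak end, 4 falls were small or seen in 1 treatment. The hairpin mir-242, which overlaps an exon of the nuclear receptor gene nhr-78 on the opposite strand (chrIV:4274247-4274342, plus strand), had 238, 209 and 202 CPM in the day 15 rotenone libraries and 220.5, 201 and 205 in day 15 DMSO. At day 5 the values were 260.4, 258 and 222 CPM in rotenone and 231.4, 272 and 227 in DMSO. The ages overlapped after rotenone and not in DMSO. Its changes of -0.19 ± 0.09 after rotenone and -0.22 ± 0.09 in DMSO were called, but without day 5 DMSO replicate 2 that in DMSO was -0.14, adjusted p = 0.151 (edgeR quasi-likelihood test). The call after rotenone ended without day 5 rotenone replicate 1 or 2 or day 15 rotenone replicate 3 (-0.18 to -0.16, adjusted p = 0.0556 to 0.141, edgeR quasi-likelihood test). Of 9 other scalings, filters, tools and models, the call of mir-242 in DMSO held in 3 and that after rotenone in 5. Summed over 3 libraries, mir-784 had 79 reads in day 15 rotenone, 71 in day 15 DMSO, 134 in day 5 rotenone and 171 in day 5 DMSO. Its fall in DMSO (-0.52 ± 0.22 at a mean of 5.02 CPM) was not called without day 5 replicate 2 or day 15 replicate 1 or 3 (-0.53 to -0.37, adjusted p = 0.0644 to 0.165, edgeR quasi-likelihood test), and after rotenone it had 0.28 ± 0.23. Calls in DMSO without one after rotenone were also those of mir-59 (-0.06 ± 0.08 after rotenone and -0.35 ± 0.08 in DMSO) and mir-355 (0.01 ± 0.07 after rotenone and -0.21 ± 0.07 in DMSO), and none of these differences between treatments passed the test of the difference of the rotenone effect between the ages. In neither treatment were mir-232, mir-392, mir-800, mir-360 and mir-792 called for age, with changes in DMSO of -0.15 ± 0.08, -0.20 ± 0.16, 0.21 ± 0.14, -0.39 ± 0.49 and 0.41 ± 0.23. The steadiest of these at depth was mir-232, a hairpin outside protein-coding genes on chromosome IV, with 98.5 ± 2.28 CPM in day 15 rotenone, 97.1 ± 9.17 in day 15 DMSO, 105 ± 1.91 in day 5 rotenone and 108 ± 5.02 in day 5 DMSO (SD, n = 3), whose change in DMSO had a 95% interval of -0.32 to 0.03. For mir-800 the means were 23.3 ± 1.35 CPM in day 15 rotenone, 22.2 ± 3.44 in day 15 DMSO, 20.4 ± 1.90 in day 5 rotenone and 19.1 ± 2.08 in day 5 DMSO, and for mir-392 they were 12.9 ± 3.64 CPM in day 15 rotenone, 14.4 ± 1.73 in day 15 DMSO, 15.7 ± 1.95 in day 5 rotenone and 16.7 ± 0.805 in day 5 DMSO.

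**Figure D3:**
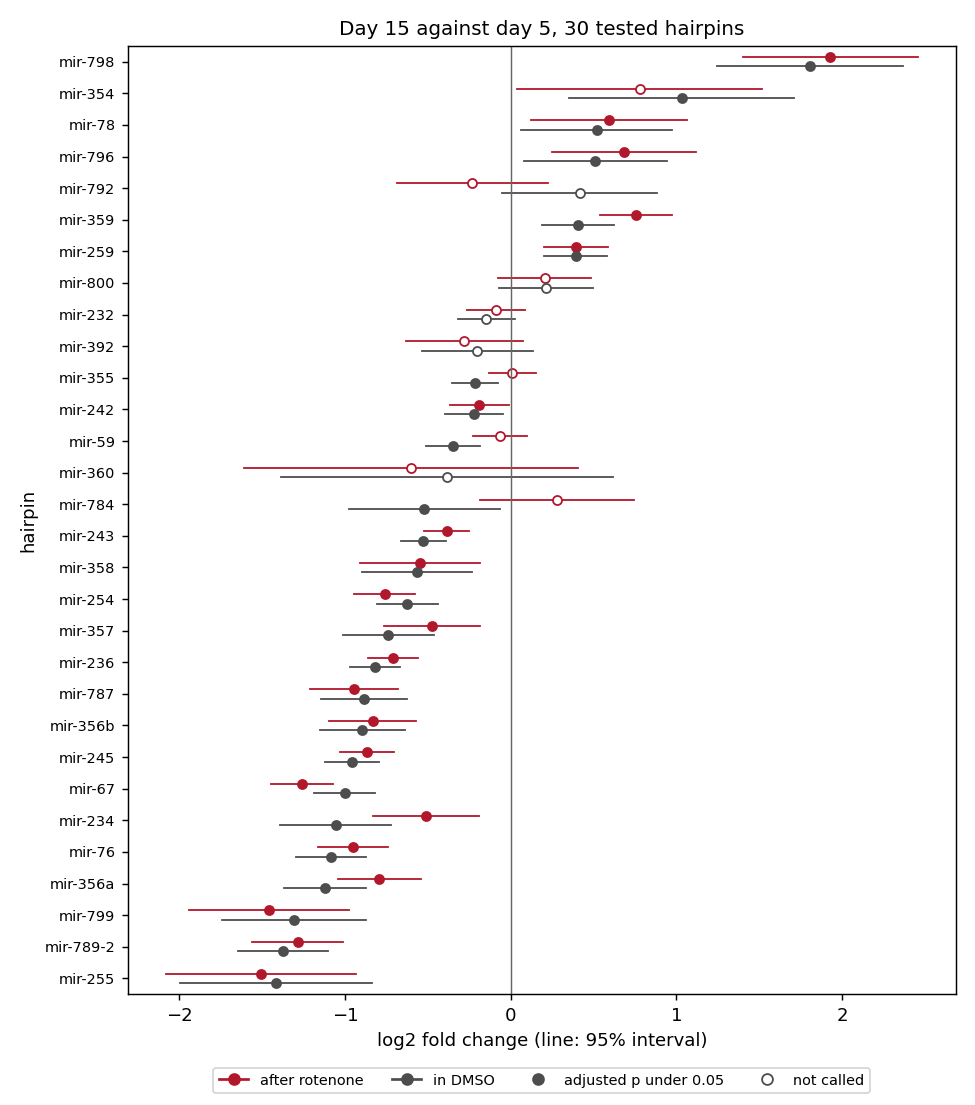
Each row is a hairpin, ordered by its change in DMSO; the horizontal axis is the log2 fold change of day 15 over day 5, with red for worms after rotenone (upper line of a row) and grey for DMSO (lower line), lines for 95% intervals and filled points for an adjusted p under 0.05. In the 21 rows where both points are filled, both lie on the same side of 0, from mir-798 at the top to mir-255 at the bottom.

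The counts by subset that follow stand beside 42% lower and 38.1% higher over all 181 hairpins in DMSO, and no subset was tested against the rest. By number, 13 members from mir-59 to mir-255 with mir-259 held most reads, and of these 10 fell and 2 rose in DMSO (median -0.62). Of the 9 tested members from mir-354 to mir-392, 5 fell and 2 rose (median -0.39), and of the 8 from mir-784 to mir-800, 4 fell and 2 rose (median -0.16). By level, 16 of the 21 members of at least 10 CPM fell and 2 rose in DMSO, whereas of the 9 scarcer ones 3 fell and 4 rose. By chromosome, 1 of 2 tested members fell on I, 3 of 3 on II, 4 of 4 on III, 4 of 7 on IV, 3 of 5 on V and 4 of 9 on X. The numbers that rose, in the same order, were 1, 0, 0, 2, 1 and 2. Of the 5 tested members that overlap a protein-coding gene on its strand 4 fell and 1 rose, of the 5 on the opposite strand 4 fell and 1 rose, and of the 20 outside such genes 11 fell and 4 rose. Within each lane all 25 members called in DMSO kept their sign, as a description only, since these are libraries of the whole comparison and lane L006 holds 1 day 15 DMSO library and lane L007 1 day 5 DMSO library.

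Rotenone against DMSO at day 5 asked whether the exposure that began at the L4 stage had left a mark in young worms. Few members moved: of 30 tested, 4 were called, mir-792 higher and mir-59, mir-355 and mir-359 lower after rotenone, beside 25.4% of all 181 hairpins, 6.08% higher and 19.3% lower. The share among the members was 13.3%, and 8 of the 30 had an unadjusted p under 0.05, beside 72 of all 181 hairpins. Since the members were chosen with earlier results of these data known, 13.3% beside 25.4% is a description only. Hairpins left out of the set stay among the 181. One is mir-249, called lower after rotenone at day 5 (log2 -0.33 ± 0.07, adjusted p = 0.00214, edgeR quasi-likelihood test). How far the choice of members sets their share was not tested. The insulin receptor regulator mir-355 (chrII:11833536-11833645, minus strand) had 351, 365 and 346 CPM in day 5 rotenone, against 407, 466 and 418 in day 5 DMSO. Every rotenone library lay below every DMSO library, with a change of -0.28 ± 0.07 in log2 units (adjusted p = 0.00269, edgeR quasi-likelihood test). The call held without any 1 of the 12 libraries. It ended without a filter (-0.20, adjusted p = 0.0599) and with at least 10 CPM in 3 or more libraries (-0.10, adjusted p = 0.230, edgeR quasi-likelihood test). The change of mir-355 was -0.23 in lane L006 and -0.24 in lane L007, where lane L007 sets 1 library against 1. At day 15 the same hairpin stood at 366, 355 and 347 CPM in rotenone and 379.7, 373 and 359 in DMSO, near the level of day 5 rotenone.

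The other 3 calls were weaker. For mir-59 (chrIV:11309154-11309253, minus strand) the values were 441, 452 and 489 CPM in day 5 rotenone and 509, 525 and 623 in day 5 DMSO, without overlap (log2 -0.26 ± 0.08, adjusted p = 0.0131, edgeR quasi-likelihood test). Its call held without day 5 DMSO replicate 1 or 2, day 5 rotenone replicate 3 or day 15 rotenone replicate 1, and ended without any 1 of the other 8 libraries (-0.25 to -0.16, adjusted p = 0.0557 to 0.136). For mir-359 they were 56.1, 54.0 and 70.5 CPM in day 5 rotenone and 71.4, 70.9 and 80.4 in day 5 DMSO, again without overlap (log2 -0.30 ± 0.10, adjusted p = 0.0339), and the call ended without any 1 library other than day 5 DMSO replicate 2 and day 5 rotenone replicate 3 (-0.33 to -0.23, adjusted p = 0.0512 to 0.169). It also ended with RLE size factors (-0.27, adjusted p = 0.0674) and with DESeq2 (-0.27, adjusted p = 0.0678). The rise of mir-792, at raw counts of 48, 53 and 61 in rotenone and 39, 32 and 33 in DMSO, was 0.53 ± 0.20 (adjusted p = 0.0465, edgeR quasi-likelihood test). The call ended without any DMSO library of that age or without rotenone replicate 2 or 3 (0.42 to 0.59, adjusted p = 0.0525 to 0.190), with DESeq2 (0.57, adjusted p = 0.0760) and with limma-voom (0.51, adjusted p = 0.0632). Among members that did not pass, mir-67 had 127, 129 and 139.6 CPM in rotenone and 106, 123 and 121 in DMSO without overlap (log2 0.17 ± 0.08, adjusted p = 0.115), and mir-243 and mir-357 had -0.16 ± 0.06 and -0.31 ± 0.12 (adjusted p = 0.0620 and 0.0572, edgeR quasi-likelihood test). With a lane term both were called lower, among 6 members and 57 of 181 hairpins. The member mir-67 was called higher without any 1 of the 6 day 15 libraries, with DESeq2, with only the groups compared and under both other filters, so the called members change with the setting. The abundant mir-236 and mir-245 had -0.07 ± 0.07 and -0.11 ± 0.08, with 95% intervals of -0.22 to 0.08 and -0.28 to 0.05. The markers mir-1 and mir-60 were also called lower and 3 of the 8 embryonic markers higher in this comparison, and their part in these values was not tested.

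These calls depended on the scaling, since the median change of all hairpins at day 5 moved between -0.04 with TMM factors and 0.08 without the 3 hairpins of highest count. With library size alone, or without those 3 hairpins, 2 members were called, both higher, mir-67 and mir-792, and the falls of mir-355, mir-59 and mir-359 kept their sign but were not called. Over all hairpins these 2 settings called 40 of 181 and 43 of 177. Relative to the median of all hairpins under TMM, mir-355 lay at -0.24, mir-59 at -0.22, mir-359 at -0.26, mir-67 at 0.22 and mir-792 at 0.57. The median of the 30 members, -0.06, was close to that of all hairpins, -0.04.

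**Figure D4:**
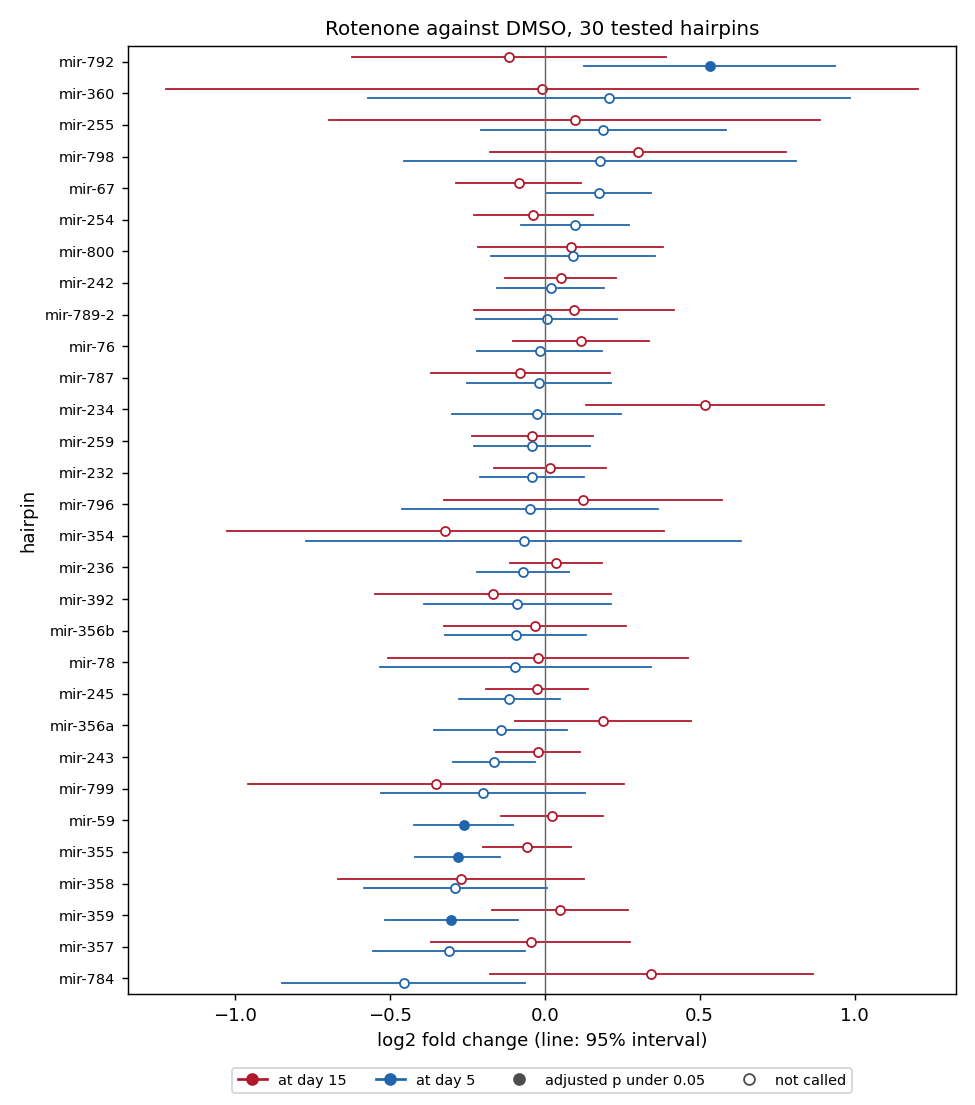
Each row is a hairpin, ordered by its change at day 5; the horizontal axis is the log2 fold change of rotenone over DMSO, with red for day 15 (upper line of a row) and blue for day 5 (lower line), lines for 95% intervals and filled points for an adjusted p under 0.05. The filled points are mir-792, mir-59, mir-355 and mir-359 at day 5, and no point is filled at day 15.

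At day 15 no member was called for rotenone. The count was 0 of 30, beside 0% of all 181 hairpins. DESeq2 and limma-voom also gave 0 calls, with 1 member each at an unadjusted p under 0.05. By edgeR's quasi-likelihood test 1 member was at that level, beside 3 of all 181 hairpins. That member was mir-234, at 11.8, 14.5 and 16.3 CPM in day 15 rotenone and 10.3, 8.88 and 10.1 in day 15 DMSO. Its groups did not overlap (log2 0.52 ± 0.19, 95% interval 0.13 to 0.90), but it did not pass the adjustment over all hairpins (adjusted p = 0.918, edgeR quasi-likelihood test). Within the lanes its change was 0.32 in lane L006 and 0.68 in lane L007, where lane L006 sets 1 library against 1. The intervals of the abundant members were narrow, -0.11 to 0.19 for mir-236, -0.19 to 0.14 for mir-245, -0.20 to 0.08 for mir-355 and -0.16 to 0.11 for mir-243. For mir-59 the values were 403, 457 and 463 CPM in day 15 rotenone and 408, 446 and 448 in day 15 DMSO, and the groups overlapped.

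Whether the rotenone effect differed between the ages was tested by the interaction, the change at day 15 minus the change at day 5. No member passed (0 of 30, beside 6.63% of all hairpins, 4.97% above 0 and 1.66% below 0). An unadjusted p under 0.05 was found for 5 members, beside 45 of all 181 hairpins. The 5 were mir-59, mir-234, mir-355, mir-359 and mir-784. DESeq2 and limma-voom also called 0 members, beside 18 and 15 of 181 hairpins, with 4 and 5 members at that level. All 5 differences were positive: 0.28 ± 0.11 for mir-59, 0.54 ± 0.23 for mir-234, 0.22 ± 0.10 for mir-355, 0.35 ± 0.15 for mir-359 and 0.80 ± 0.32 for mir-784 (adjusted p = 0.119 to 0.136, edgeR quasi-likelihood test). Just past that level, mir-792 and mir-67 had differences below 0. They were -0.65 ± 0.32 and -0.26 ± 0.13 (unadjusted p = 0.0505 and 0.0529, edgeR quasi-likelihood test), so the shared sign depends on the cut. The same numbers are the differences in ageing between rotenone and DMSO worms, so the calls that mir-59, mir-355 and mir-784 had in DMSO alone are not shown to differ by treatment. With a lane term mir-59 and mir-359 were called, beside 29 of 181 hairpins against 12 of 181 without that term. Within lane L006, where each day 15 group is 1 library, mir-59, mir-355 and mir-359 were called, beside 38 of 187 hairpins. Without day 5 rotenone replicate 3 mir-359 was called (0.47, adjusted p = 0.0445, edgeR quasi-likelihood test). Within lane L007, where each day 5 group is 1 library, 0 of all 178 hairpins were called. The median difference over all hairpins was 0.06 with TMM factors and -0.07 without the 3 hairpins of highest count. Here too the members were chosen with earlier results known, and hairpins left out stay in the background. Among those, mir-249 passed (0.42 ± 0.11, adjusted p = 0.0152, edgeR quasi-likelihood test). How far that choice bears on 0 of 30 beside 6.63% was not tested.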

How the data were processed

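Small RNA reads of 12 libraries of whole worms were deposited as raw counts of reads for each microRNA hairpin, in whole numbers, with no normalization, and no source used here gives the authors' reference, counting rule, strand use or genome build. Tools listed in the submitters' processing notes, without role or order, are SAMtools 1.3.1-9, BWA 0.7.12-r1039, Trimmomatic 0.36 and bcl2fastq 1.8.4. From these counts, group means over all 12 libraries were fitted with edgeR 4.0.16 (R 4.3.3) after filterByExpr with a minimum count of 10 and TMM scaling. The 5 contrasts were tested by the quasi-likelihood F test with 8 residual degrees of freedom. Prior degrees of freedom, drawn from the spread over all tested hairpins, were added to these in the p-values and intervals. Adjustment was by Benjamini-Hochberg over the 181 tested hairpins, with calls at an adjusted p under 0.05. The standard error is the log2 fold change over the square root of F. TMM scales the CPM of single libraries and groups, and library size those averaged over all 12. Replicate libraries differed from each other by a chi-square of 28.3 to 419 for each degree of freedom, where sampling alone gives 1, so none was taken for a copy. DESeq2 1.42.0 and limma 3.58.1 (voom) served as alternatives, and the procedure was tested on simulated data.

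Groups come from the labels, and replicate numbers follow the order of deposit. Every member is accounted for. Members of at least 10 CPM are described singly, with values in every library for the 5 most abundant and for those called, and members under 10 CPM are named where called. The members and the lists (relatives outside worms known as background, and number ranges) were chosen with earlier results of these data known. Coordinates are those of genes of the same name in the Ensembl 115 annotation of WBcel235, in which all 42 names were found once, and may differ from the authors' build. DNA sequences were not used here.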

Additional observations from a re-analysis of the deposited data

How the results depend on the processing

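Ageing calls were the most stable. Of the 25 members called in DMSO, 20 kept the call without any 1 library and under RLE size factors, library size alone, omission of the 3 hairpins of highest count, both filters, DESeq2, limma-voom, only the groups compared and a lane term, where each was tested; after rotenone 19 of 21 did. The others were mir-78, mir-242, mir-355, mir-784 and mir-796 in DMSO, and mir-78 and mir-242 after rotenone. The calls of mir-242 and mir-355 in DMSO ended with library size alone (-0.14 and -0.14, adjusted p = 0.187 and 0.0956, edgeR quasi-likelihood test). That of mir-242 also ended with RLE size factors, on omitting those 3 hairpins, under both filters and with DESeq2. That of mir-355 also ended with at least 10 CPM in 3 or more libraries. Without 1 library the number of members called was 21 to 26 in DMSO and 20 to 21 after rotenone. Over all 182 to 186 hairpins tested it was 130 to 146 in DMSO and 131 to 140 after rotenone. No called change of a member of at least 10 CPM turned its sign under any alternative run.

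For rotenone at day 5 the number of members called was 4, against 2 with library size alone, 2 on omitting those 3 hairpins, 2 without a filter, 2 with at least 10 CPM in 3 or more libraries and 0 within lane L007, and it was 2 to 4 without 1 library. Lane L007 sets 1 library against 1 there, and 1 of all 178 hairpins was called. The number was 6 with a lane term, 5 within lane L006 and 3 with DESeq2. Over all hairpins these settings called 57 of 181, 62 of 187 and 48 of 181. The main fit called 46 of 181 hairpins and library size alone 40 of 181. On omitting those 3 hairpins 43 of 177 were called, and without a filter 41 of 238. With at least 10 CPM in 3 or more libraries 44 of 137 were called. Without 1 library 33 to 46 hairpins were called, of 182 to 186. Of the 4 calls, 0 held under all of the other scalings, filters, tools and models tried. The called members also changed: without 1 library mir-355 was called in 12 of 12 fits, mir-792 in 7, mir-67 in 6, mir-59 in 4 and mir-359 in 2. The number was 2 without day 5 rotenone replicate 1 (mir-355 and mir-792) and without replicate 2 (mir-355 and mir-357). At day 15 it was 0 throughout. For the interaction it was 1 with at least 10 CPM in 3 or more libraries (mir-67), 2 with a lane term, 3 within lane L006 (day 15 groups of 1 library) and 0 to 1 without 1 library. Over all hairpins it was 17 of 137 with that filter, 29 of 181 with a lane term and 8 to 19 without 1 library. The cause of these changes between settings was not tested. As alternatives chosen after seeing the data, summing mir-356a with mir-356b gave 5 calls for rotenone at day 5 and summing mir-789-2 with mir-789-1 gave 4. Over all 180 hairpins then tested the calls were 48 and 47. No paired analysis was possible because the labels give the libraries no replicate numbers. Depth limits the 9 tested members under 10 CPM most, since their day 15 counts reached down to 2 reads.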
